A study of Mus musculus with 12 samples.

Results

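The ABC transporter genes were taken as the genes whose mouse symbol reads Abc, then a subfamily letter from a to g, then a number and, in some cases, a closing letter. The rule found 48 such genes among 22296 gene symbols that a probe set of the array named alone. All 48 were among the 20711 genes tested, which needed at least 1 probe set above the median signal of the array. The 48 genes held 1780 probe sets, of which 1128 passed that filter on low values. The share of a gene's probe sets that passed ran from 14.3% to 100%, with a median of 69.4%, and for 18 genes it was under 50%.

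ABC transporters are membrane proteins that bind and split ATP in paired cytoplasmic domains and use the energy to move a substrate across a membrane. The family exports drugs, glutathione conjugates, sterols and phospholipids from the cell, serves mitochondria, peroxisomes and lysosomes, and includes soluble ATPases that work on the ribosome instead of a membrane. In blood-forming tissue the drug efflux pumps are known for their activity in stem cells and in treated leukaemias, and the sterol exporters for their work in macrophages.

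The study compared cultured mouse bone marrow progenitors that carried Hoxa9, a homeobox transcription factor, with or without its cofactor Meis1. In HOXA9+MDHD cultures the cells carried Hoxa9 and a Meis1 from which the DNA-binding homeodomain was deleted. In HOXA9+MEIS1 cultures they carried Hoxa9 and full Meis1, and in HOXA9+MIY cultures Hoxa9 and the empty MIY vector. All cells came from the bone marrow of 12-week-old C57B/6 females treated with 5-FU, a drug that kills dividing cells. All received their genes in MSCV retroviral vectors, the Hoxa9 vector bearing GFP, and grew in DMEM with serum, IL3, SCF and IL6. Hoxa9 was therefore overexpressed in the HOXA9+MIY cultures too, and no culture without it was included. RNA was taken after 4 or 3 weeks of culture, with 2 arrays for each condition and week, so each condition had 4 arrays. The design text counts 4 independent experiments per condition; whether a culture gave both a week 4 and a week 3 array is not given.

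Values are log2 signals per gene from 12 Affymetrix arrays, so a difference of 1 stands for a 2-fold change. Different genes have different probes, and levels were compared between arrays, not between genes. Correlations between arrays over all probe sets ran from 0.9671 to 0.9845. Hoxa9 lay between 13.18 and 13.46 on all arrays, while Meis1 was at 9.11 to 9.74 in HOXA9+MDHD, 9.62 to 9.83 in HOXA9+MEIS1 and 6.77 to 6.96 in HOXA9+MIY cultures. The mean level of 8 stem and early progenitor markers was 8.94 to 9.22 in HOXA9+MDHD, 9.05 to 9.31 in HOXA9+MEIS1 and 8.65 to 8.81 in HOXA9+MIY cultures. The mean of 10 neutrophil markers was 8.58 to 10.30 in HOXA9+MDHD, 7.97 to 8.31 in HOXA9+MEIS1 and 10.24 to 11.03 in HOXA9+MIY cultures. That of 9 monocyte and macrophage markers was 9.21 to 10.09, 8.28 to 8.63 and 9.98 to 10.12 in the same conditions. In such bulk cultures, fewer cells of a type and less RNA per cell cannot be told apart.

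Abcb1a and Abcb1b, the genes called with both forms of Meis1, and Abcg3, the gene with the largest change, all lie on mouse chromosome 5, and the 250 bases before their start sites are shown so that the promoters can be set side by side. They come from RefSeq (build GRCm38.p6), are written 5′ to 3′ on the strand of the gene, and cover chr5:8566841-8567090 (plus strand) for Abcb1a, chr5:8797897-8798146 (plus strand) for Abcb1b and chr5:104982718-104982967 (minus strand) for Abcg3. Capitals mark matches, on either strand, to TGACAG (the core that Meis proteins are known to bind), TGATNNAT (a joint Pbx and Hox pattern), CCAAT or GGGCGG (a GC box). No marked matches overlap.
Abcb1a: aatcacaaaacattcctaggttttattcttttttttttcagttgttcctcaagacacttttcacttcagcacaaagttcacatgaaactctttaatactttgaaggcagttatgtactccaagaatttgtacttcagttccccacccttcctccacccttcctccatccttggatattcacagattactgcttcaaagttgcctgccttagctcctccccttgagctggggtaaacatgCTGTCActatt
Abcb1b: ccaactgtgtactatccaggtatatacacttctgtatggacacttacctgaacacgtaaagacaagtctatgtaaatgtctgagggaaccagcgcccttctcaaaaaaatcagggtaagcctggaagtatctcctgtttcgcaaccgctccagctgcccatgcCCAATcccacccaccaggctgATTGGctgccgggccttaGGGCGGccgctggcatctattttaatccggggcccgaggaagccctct
Abcg3: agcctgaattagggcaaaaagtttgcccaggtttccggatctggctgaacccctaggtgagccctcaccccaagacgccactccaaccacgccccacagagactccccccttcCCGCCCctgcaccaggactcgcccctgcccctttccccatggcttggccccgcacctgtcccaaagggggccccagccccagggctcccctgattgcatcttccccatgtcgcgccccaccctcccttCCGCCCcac

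The Abcb1a window held 1 match to TGACAG, on the reverse strand, from 11 to 6 bases before the start, and no CCAAT or GGGCGG. The Abcb1b window held CCAAT once on each strand and GGGCGG once, and the Abcg3 window held 2 matches to GGGCGG on the reverse strand. RefSeq promoters were listed for 38 of the 48 genes, in 45 windows. TGACAG occurred in 2 of these 45 windows, those of Abcb1a and Abcc5, against 15.9% of 32851 windows of the same length over all genes. TGATNNAT occurred in 0 of the 45, against 7.68% of all windows, CCAAT in 13, against 33.8%, and GGGCGG in 20, against 32.7%. These matches are letters in a window, and no binding was measured.

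Against the empty vector, 2 of the 48 genes were called with the homeodomain-deleted Meis1 and 11 with full Meis1. Of all genes, 1.91% and 10.8% were called in these comparisons. Leaving out single arrays gave 1 to 6 ABC genes with the homeodomain-deleted Meis1 and 8 to 13 with full Meis1. The drug pump genes Abcb1a and Abcb1b were higher with either form of Meis1. The sterol exporters Abca1 and Abcg1, together with Abcg3, Abca13, Abcc5 and Abca3, were lower with full Meis1. Of these 6, Abcg3, Abca1, Abca13 and Abcg1 also differed between the forms of Meis1, while for Abcc5 and Abca3 the difference between the forms was not called. A gene was called when its adjusted p was under 0.05, from limma with Benjamini-Hochberg adjustment over all 20711 genes.

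With HOXA9+MDHD minus HOXA9+MIY, 2 of 48 were called higher and 0 lower, while 1.91% of all genes were called, 0.913% higher and 0.999% lower. At an unadjusted p under 0.05 there were 12 of the 48 (25%), against 13.4% of all genes. The HOXA9+MEIS1 minus HOXA9+MIY comparison called 5 ABC genes higher and 6 lower, while 10.8% of all tested genes were called, 5.29% higher and 5.55% lower. With HOXA9+MDHD minus HOXA9+MEIS1, 4 were called higher (Abcg3, Abca1, Abca13 and Abcg1) and 1 lower (Abcb10), while 4.36% of all genes were called, 2.12% higher and 2.24% lower. The median change over the 48 genes was 0.01 in HOXA9+MDHD minus HOXA9+MIY, -0.04 in HOXA9+MEIS1 minus HOXA9+MIY and 0.01 in HOXA9+MDHD minus HOXA9+MEIS1, where the medians over all genes were -0.01, -0.01 and -0.01. Most of the family stayed near 0, and a few genes carried the large changes. The first and second of these comparisons share the HOXA9+MIY arrays, so their values are set side by side without a measure of likeness.

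**Figure D1:**
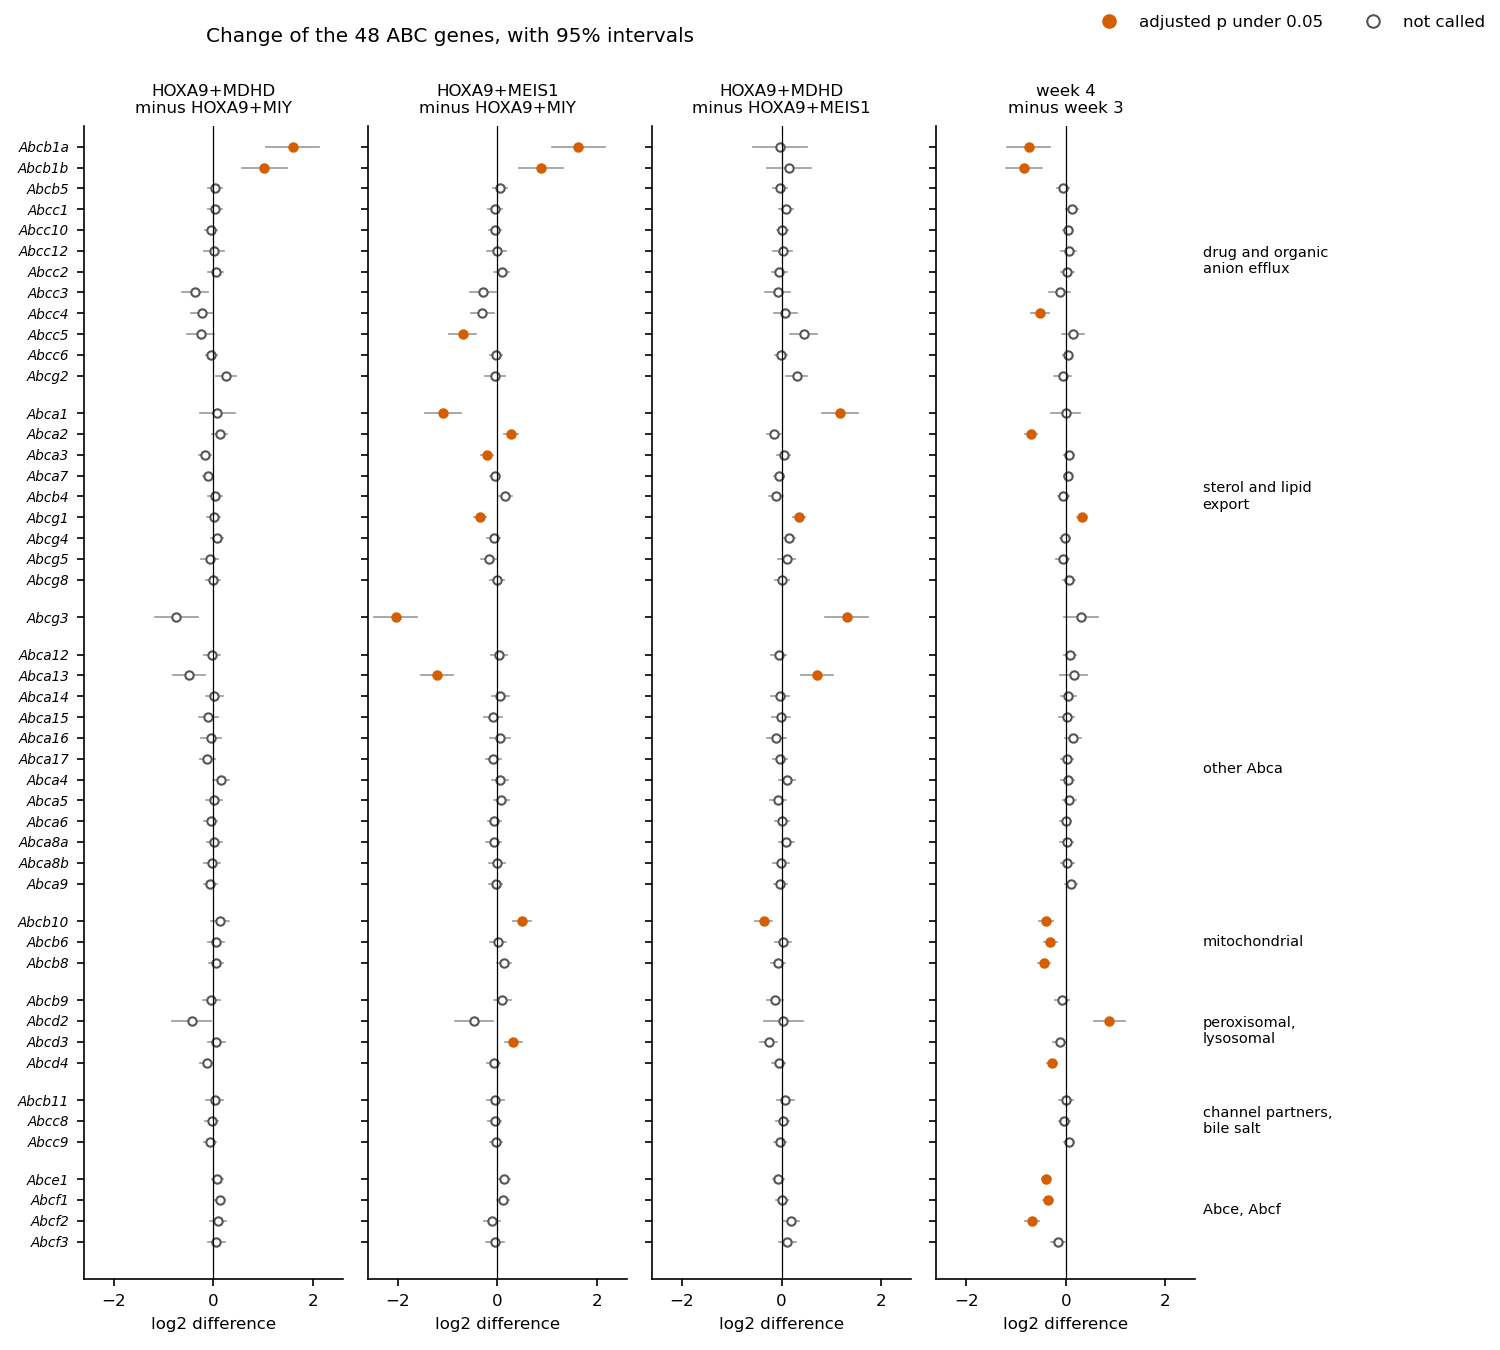
Each point is 1 of the 48 ABC genes, grouped by role, with its log2 difference on the x axis and its 95% interval, not adjusted for the number of genes; filled points have an adjusted p under 0.05. Abcb1a and Abcb1b lie to the right in the first and second panels, Abcg3, Abca13 and Abca1 lie farthest left in the second, and 11 filled points lie left in the week panel.

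Abcb1a encodes P-glycoprotein, the broad drug efflux pump. Abcb1a stood at 8.66 and 7.52 (week 4) and 9.06 and 9.71 (week 3) in HOXA9+MDHD, 8.44 and 8.43, then 9.03 and 9.17 in HOXA9+MEIS1, and 6.99 and 7.03, then 7.26 and 7.28 in HOXA9+MIY cultures. All 8 arrays with either form of Meis1 were above all 4 HOXA9+MIY arrays, and the HOXA9+MDHD arrays were spread far wider than the others. Abcb1a averaged 8.74 ± 0.92 in HOXA9+MDHD, 8.77 ± 0.39 in HOXA9+MEIS1 and 7.14 ± 0.15 in HOXA9+MIY cultures (SD, n = 4 each). It was higher by 1.60 (SE 0.25), a 3.03-fold change, in HOXA9+MDHD against HOXA9+MIY (limma, adjusted p = 0.00816). It was higher by 1.63 (SE 0.25), a 3.09-fold change, in HOXA9+MEIS1 against HOXA9+MIY (limma, adjusted p = 0.000889). Groups that do not overlap were seen for 4.18% of all genes with HOXA9+MDHD against HOXA9+MIY and for 11.0% with HOXA9+MEIS1 against HOXA9+MIY.

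Between the forms of Meis1, Abcb1a differed by -0.03 (HOXA9+MDHD minus HOXA9+MEIS1, 95% interval -0.56 to 0.51, limma adjusted p = 0.976). By week, the HOXA9+MDHD minus HOXA9+MIY change was 1.08 at week 4 and 2.12 at week 3, a difference with an unadjusted p of 0.0342 and an adjusted p of 0.999 (limma, interaction). With the week 4 arrays alone the change of 1.08 was not called (limma, adjusted p = 0.44), and without the week term the change of 1.60 was not called (adjusted p = 0.112). Leaving out the second HOXA9+MDHD array of week 4, the lowest with Meis1, gave 1.92 (adjusted p = 3.26e-05).

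Abcb1b, the second rodent gene for P-glycoprotein and the next gene along the chromosome, moved the same way with less separation. Abcb1b stood at 7.48 and 6.79 (week 4) and 8.01 and 8.84 (week 3) in HOXA9+MDHD, 7.26 and 7.45, then 7.76 and 8.04 in HOXA9+MEIS1, and 6.42 and 6.42, then 7.09 and 7.08 in HOXA9+MIY cultures. Within each week every array with either form of Meis1 was above the HOXA9+MIY arrays, but the lowest HOXA9+MDHD array of week 4 was below the HOXA9+MIY arrays of week 3. The change was 1.03 (SE 0.20), 2.04-fold, in HOXA9+MDHD against HOXA9+MIY (limma, adjusted p = 0.0264) and 0.87 (SE 0.20), 1.83-fold, in HOXA9+MEIS1 against HOXA9+MIY (adjusted p = 0.015). Between the forms of Meis1 it differed by 0.15 (95% interval -0.29 to 0.60, HOXA9+MDHD minus HOXA9+MEIS1). The HOXA9+MIY arrays of week 4, at 6.42 and 6.42, lay close to the level of the filter on low values (6.26). The HOXA9+MDHD call was lost in 10 of 24 other settings. These included leaving out the first HOXA9+MDHD array of week 4 (0.99, adjusted p = 0.0843) or any 1 HOXA9+MIY array (0.99 to 1.06, adjusted p from 0.0633 to 0.0927). Without the filter on dim probe sets neither call for Abcb1b was made (0.86, adjusted p = 0.0519, with HOXA9+MDHD; 0.54, adjusted p = 0.115, with HOXA9+MEIS1). The HOXA9+MEIS1 call was also lost without the second HOXA9+MEIS1 array of week 4 (0.79, adjusted p = 0.0566).

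**Figure D2:**
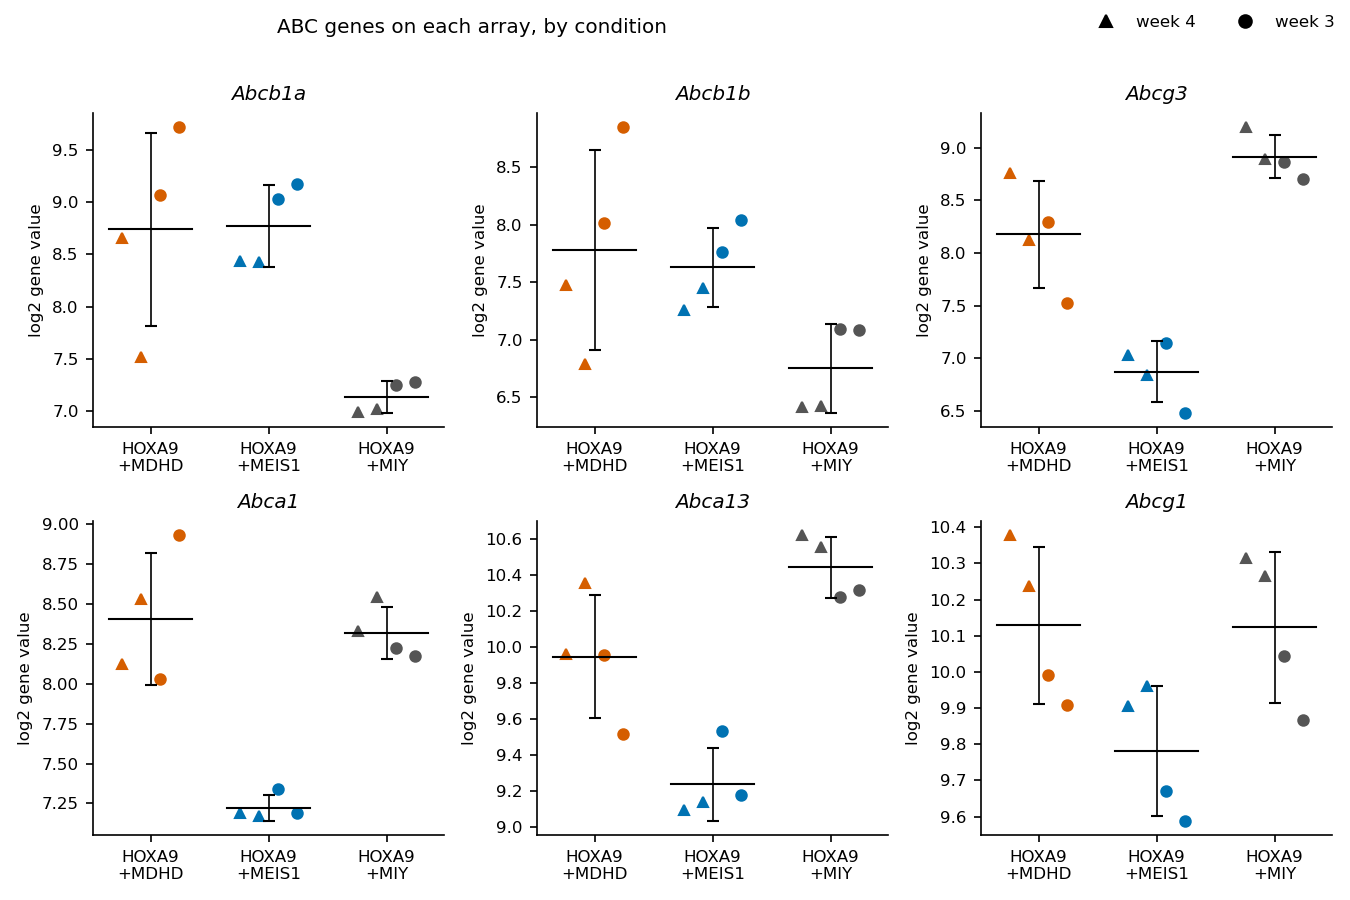
Each point is the log2 gene value of 1 array, by condition, with triangles for week 4 and circles for week 3; horizontal lines are means and bars are SDs over the 4 arrays of a condition. Abcb1a and Abcb1b are lowest in HOXA9+MIY cultures, Abca1 and Abcg3 are lowest in HOXA9+MEIS1 cultures, and the HOXA9+MDHD arrays have the widest spread for Abcb1a (SD 0.92).

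Beside the higher drug pump genes, 3 of 8 stem and early progenitor markers were called higher and 1 lower in HOXA9+MDHD against HOXA9+MIY (median 0.45), and 5 higher and 1 lower in HOXA9+MEIS1 against HOXA9+MIY (median 0.60). Their part in the Abcb1a and Abcb1b changes was not tested.

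Single probe sets showed how evenly the change ran along each gene. All 27 kept probe sets of Abcb1a were higher with HOXA9+MDHD (20 called, median 1.57) and all 27 with HOXA9+MEIS1 (23 called, median 1.56), against HOXA9+MIY. For Abcb1b, 17 of 17 kept probe sets were higher with HOXA9+MDHD, 8 of them called, and 16 of 17 with HOXA9+MEIS1, 9 of them called. The changes of kept Abcb1b probe sets ran from 0.18 to 2.44 with HOXA9+MDHD and from -0.20 to 2.55 with HOXA9+MEIS1, so the gene-level value covers unequal parts. Probe sets were kept by their mean over all arrays, so some may have passed because they were high with Meis1. Of the 16 Abcb1b probe sets below the filter level, 0 were called in either comparison. Of the 6 Abcb1a probe sets below it, 3 were called higher with HOXA9+MDHD and 4 with HOXA9+MEIS1. Abcb1a and Abcb1b are close relatives, and signal that passes from 1 gene's transcript to the other's probes was not tested, since probe sequences were not analysed here.

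Abcb4, which moves phosphatidylcholine into bile in liver, follows Abcb1b in the RefSeq gene order, and at the gene level it was not called. It averaged 7.91 ± 0.12 in HOXA9+MDHD, 8.02 ± 0.06 in HOXA9+MEIS1 and 7.86 ± 0.06 in HOXA9+MIY cultures (SD, n = 4 each). The change was 0.04 with HOXA9+MDHD (adjusted p = 0.848) and 0.16 with HOXA9+MEIS1 (adjusted p = 0.161), both against HOXA9+MIY and from limma. None of its 13 kept probe sets was called in either comparison. Among its 18 probe sets below the filter level, however, 9 were called higher in HOXA9+MEIS1 against HOXA9+MIY, by 0.81 to 1.76, and 1 in HOXA9+MDHD against HOXA9+MIY, by 1.30. RefSeq lists Abcb4 also as an older name of Abcb1a, and where these probe sets lie was not tested.

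**Figure D3:**
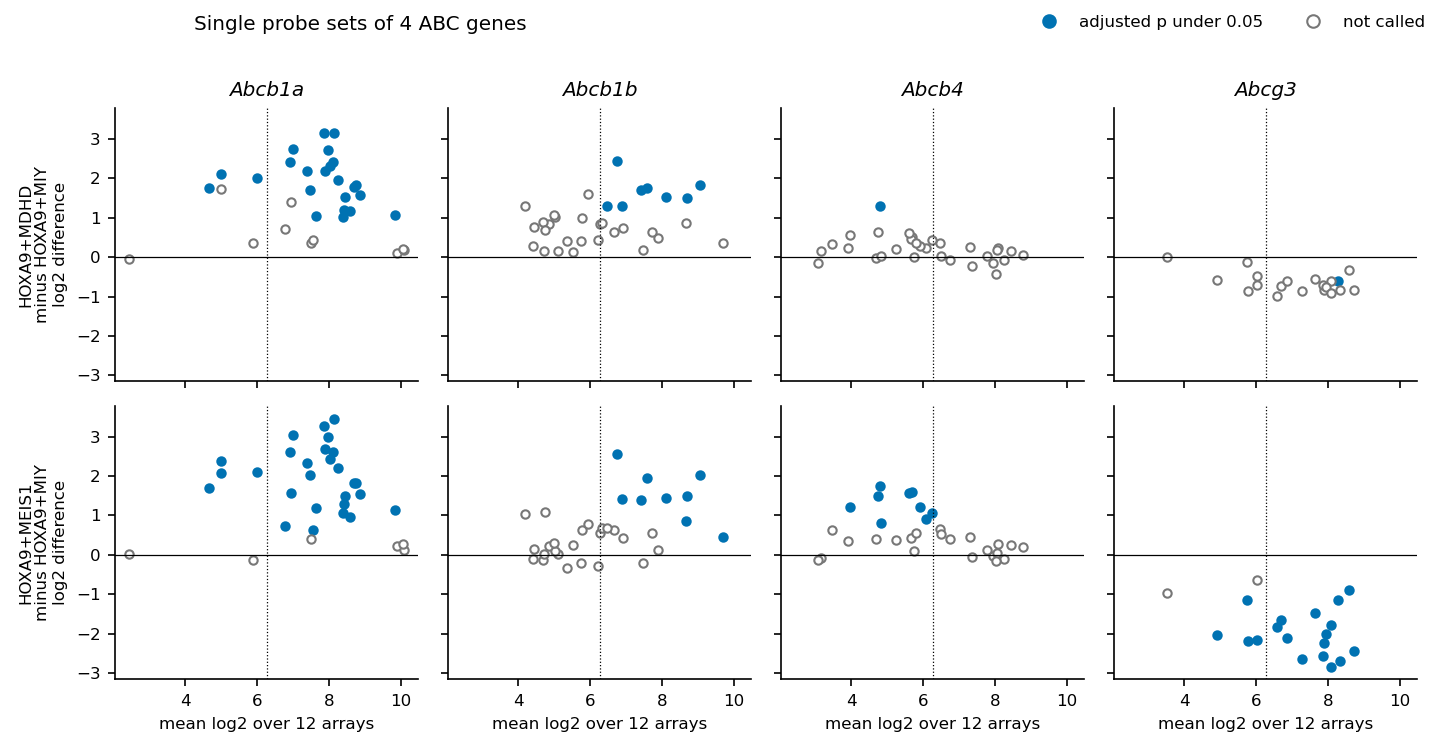
Each point is 1 probe set, with its mean log2 signal over 12 arrays on the x axis and its log2 difference on the y axis; the dotted line marks the filter level near 6.26 and filled points have an adjusted p under 0.05. The probe sets of Abcb1a lie above 0 almost throughout, those of Abcb4 that are filled lie left of the line, and all 14 kept probe sets of Abcg3 lie below 0 in both rows.

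Other genes around the pair were then looked at, after the values of the pair had been seen. In RefSeq the order is Dbf4, Slc25a40, Rundc3b, Abcb1a, Abcb1b, Abcb4, Crot, Tmem243 and Dmtf1, and Tmem243 was not analysed here. Rundc3b, next to Abcb1a, averaged 7.20 in HOXA9+MDHD, 7.60 in HOXA9+MEIS1 and 6.54 in HOXA9+MIY cultures. It was higher by 0.66 with HOXA9+MDHD (limma, adjusted p = 0.0171) and by 1.06 with HOXA9+MEIS1 (adjusted p = 0.000117). Crot, a peroxisomal carnitine acyltransferase, averaged 10.07 in HOXA9+MDHD, 10.46 in HOXA9+MEIS1 and 10.03 in HOXA9+MIY cultures, and was called higher with HOXA9+MEIS1 against HOXA9+MIY (0.43, adjusted p = 0.013) but not with HOXA9+MDHD (0.04, adjusted p = 0.923). Dbf4, Slc25a40 and Dmtf1 were called in none of the 3 condition comparisons. Across this stretch, the genes called with both forms of Meis1 were Rundc3b, Abcb1a and Abcb1b.

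The other 10 genes of the drug and organic anion efflux group gave 1 call between conditions. Abcc5, which exports cyclic nucleotides and other organic anions, averaged 8.43 ± 0.17 in HOXA9+MDHD, 7.98 ± 0.15 in HOXA9+MEIS1 and 8.68 ± 0.28 in HOXA9+MIY cultures (SD, n = 4 each). It was lower by -0.70 (SE 0.12) in HOXA9+MEIS1 against HOXA9+MIY (limma, adjusted p = 0.00279), with no overlap between the groups and 30 of 41 kept probe sets called lower. The gene differed by -0.25 in HOXA9+MDHD against HOXA9+MIY (adjusted p = 0.421), and in HOXA9+MDHD against HOXA9+MEIS1 by 0.45 (95% interval 0.18 to 0.72, adjusted p = 0.068). The change was -1.06 at week 4 and -0.34 at week 3, and the difference between the weeks had the lowest unadjusted p of the family (0.000643) with an adjusted p of 0.322 (limma, interaction). Abcc4, an exporter of cyclic nucleotides and prostaglandins, was not called at -0.23 with HOXA9+MDHD (adjusted p = 0.373) or -0.30 with HOXA9+MEIS1 (adjusted p = 0.092). Abcg2, the efflux pump behind the side population of blood stem cells, averaged 7.07 ± 0.19 in HOXA9+MDHD, 6.77 ± 0.05 in HOXA9+MEIS1 and 6.81 ± 0.11 in HOXA9+MIY cultures and was not called in any comparison. In HOXA9+MDHD against HOXA9+MEIS1 it differed by 0.30 (95% interval 0.10 to 0.51, limma adjusted p = 0.111). These groups did not overlap, as for 5.21% of all genes. Only 8 of its 23 probe sets passed the filter. In that comparison 6 of the 8 were higher and 2 lower, with 1 called (1.21). Of the 15 below the filter level, 1 was called higher in HOXA9+MDHD against HOXA9+MIY (0.97). Changes of the uncalled genes of this group lay between -0.37 and 0.26 with HOXA9+MDHD and between -0.30 and 0.09 with HOXA9+MEIS1, both against HOXA9+MIY.

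Glutathione supplies the conjugates that several Abcc pumps carry, and a list of 15 genes for its synthesis and use was read beside them. With HOXA9+MEIS1, 4 of the 15 were called lower and 0 higher, the largest being the membrane-bound glutathione transferase genes Mgst1 (-1.13, adjusted p = 0.00107) and Mgst2 (-0.71, adjusted p = 0.00104) and the soluble transferase gene Gsta4 (-0.57, adjusted p = 0.0118), all from limma. With HOXA9+MDHD, Mgst1 alone was called lower (-0.97, adjusted p = 0.0171). The list's median change was -0.14 with HOXA9+MEIS1 and -0.08 with HOXA9+MDHD, where all genes had a median of -0.01 in both.

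Abcg3 had the largest change of the family. It is a rodent gene related to Abcg2. Abcg3 stood at 8.76 and 8.12 (week 4) and 8.29 and 7.53 (week 3) in HOXA9+MDHD, 7.03 and 6.84, then 7.14 and 6.48 in HOXA9+MEIS1, and 9.20 and 8.89, then 8.87 and 8.70 in HOXA9+MIY cultures. The HOXA9+MEIS1 arrays lay below all others, and the HOXA9+MDHD arrays lay between, with their highest array above the lowest HOXA9+MIY array. The difference in HOXA9+MEIS1 against HOXA9+MIY was -2.04 (SE 0.20), a level 4.12-fold lower (limma, adjusted p = 3.33e-05), and it was called in all 24 other settings run, from -2.20 to -1.95. All 14 kept probe sets were called lower, with changes from -2.83 to -0.90. The lowest HOXA9+MEIS1 array, at 6.48, lay close to the filter level of 6.26.

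With the homeodomain deleted, Abcg3 was above HOXA9+MEIS1 by 1.31 (SE 0.20), 2.47-fold (limma, adjusted p = 0.00223), with no overlap between these groups, which was seen for 5.21% of all genes. Against HOXA9+MIY it differed by -0.74 (95% interval -1.17 to -0.31) and was not called (adjusted p = 0.0856). All 14 kept probe sets were lower there, 1 of them called. These probe sets were read on the same arrays and are not separate replicates.

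Abca1 and Abcg1 export cholesterol, Abca1 to lipid-poor apolipoprotein and Abcg1 to high-density lipoprotein. Abca1 stood at 8.12 and 8.53 (week 4) and 8.03 and 8.93 (week 3) in HOXA9+MDHD, 7.19 and 7.17, then 7.34 and 7.19 in HOXA9+MEIS1, and 8.33 and 8.55, then 8.22 and 8.17 in HOXA9+MIY cultures. The HOXA9+MEIS1 arrays were low and close together, while the ranges of HOXA9+MDHD and HOXA9+MIY overlapped. Abca1 was lower by -1.10 (SE 0.17), 2.14-fold, in HOXA9+MEIS1 against HOXA9+MIY (limma, adjusted p = 0.000889), and all 70 kept probe sets were lower. It was higher by 1.18 (SE 0.17), 2.27-fold, in HOXA9+MDHD against HOXA9+MEIS1 (adjusted p = 0.00135), again with all 70 probe sets in that direction. In HOXA9+MDHD against HOXA9+MIY the difference was 0.09 (95% interval -0.27 to 0.45, adjusted p = 0.889).

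Abcg1 stood at 10.38 and 10.24 (week 4) and 9.99 and 9.91 (week 3) in HOXA9+MDHD, 9.90 and 9.96, then 9.67 and 9.59 in HOXA9+MEIS1, and 10.32 and 10.26, then 10.04 and 9.87 in HOXA9+MIY cultures. Within each week the HOXA9+MEIS1 arrays were the lowest, and over both weeks the conditions overlapped. The change was -0.34 (SE 0.06) in HOXA9+MEIS1 against HOXA9+MIY (limma, adjusted p = 0.00164) and 0.35 (SE 0.06) in HOXA9+MDHD against HOXA9+MEIS1 (adjusted p = 0.00351). In HOXA9+MDHD against HOXA9+MIY it was 0.01 (95% interval -0.12 to 0.13). Neither Abcg1 call was made without the week term.

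The rest of the sterol and phospholipid export group, 9 genes in all, moved little between conditions. Abca2, an endosomal and lysosomal lipid transporter, was higher in HOXA9+MEIS1 against HOXA9+MIY by 0.27 (limma, adjusted p = 0.0182). Abca3, which in lung loads surfactant lipid, was lower by -0.20 (adjusted p = 0.038). Abca3 differed by -0.16 in HOXA9+MDHD against HOXA9+MIY (adjusted p = 0.205) and by 0.04 in HOXA9+MDHD against HOXA9+MEIS1 (95% interval -0.08 to 0.16, adjusted p = 0.837). The Abca2 call was lost without either HOXA9+MEIS1 array of week 3, either HOXA9+MIY array of week 3 or the second HOXA9+MIY array of week 4 (0.22 to 0.27, adjusted p from 0.0505 to 0.0702). The Abca3 call was lost without any of 6 single arrays, the HOXA9+MEIS1 and HOXA9+MIY arrays other than the first HOXA9+MEIS1 and the second HOXA9+MIY array of week 3 (-0.20 to -0.18, adjusted p from 0.0858 to 0.12). The 5 uncalled genes, Abca7, Abcb4, Abcg4, Abcg5 and Abcg8, lay between -0.17 and 0.16.

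A list of 16 measured genes of sterol sensing and handling was read beside the exporters. With HOXA9+MEIS1 against HOXA9+MIY, 7 were called lower and 1 higher. Apoc2 and Apoe, apolipoprotein genes, were lower by -3.27 (limma, adjusted p = 1.4e-07) and -1.14 (adjusted p = 5.03e-06), and Pltp, for phospholipid transfer protein, by -0.64 (adjusted p = 0.000394). With HOXA9+MDHD against HOXA9+MIY only Apoc2 (-0.96, adjusted p = 0.00681) and Apoe (-0.72, adjusted p = 0.003) were called, both lower. With HOXA9+MDHD against HOXA9+MEIS1, 4 were called higher and 2 lower, led by Apoc2 (2.31, adjusted p = 3.13e-06), Mylip (-0.57, adjusted p = 0.00948) and Lipa (0.45, adjusted p = 0.00551). Nr1h2 and Nr1h3, the oxysterol receptors known to induce Abca1 and Abcg1, were called in none of the 3 condition comparisons (adjusted p from 0.131 to 0.873).

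Abca13, which encodes one of the largest proteins of the family, was the one called among 12 other Abca genes. Abca13 stood at 9.96 and 10.35 (week 4) and 9.96 and 9.52 (week 3) in HOXA9+MDHD, 9.10 and 9.14, then 9.54 and 9.18 in HOXA9+MEIS1, and 10.62 and 10.55, then 10.28 and 10.32 in HOXA9+MIY cultures. The HOXA9+MIY arrays were the highest with 1 exception, a HOXA9+MDHD array of week 4, and the HOXA9+MDHD arrays reached down to the HOXA9+MEIS1 arrays at week 3. The change in HOXA9+MEIS1 against HOXA9+MIY was -1.20 (SE 0.15), 2.3-fold lower (limma, adjusted p = 0.000196), and was called in all 24 other settings. All 75 probe sets were lower, 74 of them called. In HOXA9+MDHD against HOXA9+MEIS1 it was 0.71 (SE 0.15, adjusted p = 0.0166), and this call was lost without either HOXA9+MEIS1 array of week 4 (0.63, adjusted p = 0.0566, and 0.64, adjusted p = 0.0598) and with the week 3 arrays alone (0.38, adjusted p = 0.373). In HOXA9+MDHD against HOXA9+MIY it was -0.50 (adjusted p = 0.128), and it was called lower there without the second HOXA9+MDHD array of week 4.

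The 11 other genes of that group, among them the eye gene Abca4 and the skin lipid gene Abca12, lay between -0.08 and 0.08 in HOXA9+MEIS1 against HOXA9+MIY, and none was called in any comparison. Only 14.3% (Abca16) to 43.1% (Abca4) of the probe sets of each of these 11 genes passed the filter, so a change may have gone unseen. Beside the lower ABC genes, all 10 neutrophil markers were called lower in HOXA9+MEIS1 against HOXA9+MIY (median -2.63). Of 9 monocyte and macrophage markers, 7 were called lower there and 1 higher (median -1.77). In HOXA9+MDHD against HOXA9+MIY, 4 of 10 neutrophil markers were called lower and 0 higher (median -1.36). Of the monocyte and macrophage markers, 2 of 9 were called lower there and 1 higher (median -0.85). In HOXA9+MDHD against HOXA9+MEIS1, 6 of 10 neutrophil markers were called higher and 0 lower (median 1.24). Of the monocyte and macrophage markers, 5 of 9 were called higher there and 1 lower (median 0.92). No marker of these lists averaged below the filter level in any condition. In 7 further lists, for other blood cells and stroma, from 0 to 2 markers were called in each direction of each condition comparison. The part of these cell types in the ABC changes was not tested.

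Among the organelle genes, Abcb10 and Abcd3 were called between conditions. Abcb10, an inner mitochondrial membrane transporter that red cell precursors need for haem synthesis, stood at 8.28 and 7.92 (week 4) and 8.48 and 8.48 (week 3) in HOXA9+MDHD, 8.39 and 8.48, then 8.78 and 8.95 in HOXA9+MEIS1, and 8.09 and 7.86, then 8.33 and 8.33 in HOXA9+MIY cultures. The HOXA9+MEIS1 arrays were the highest within each week and did not overlap the HOXA9+MIY arrays. Abcb10 was higher by 0.49 (SE 0.08), 1.41-fold, in HOXA9+MEIS1 against HOXA9+MIY (limma, adjusted p = 0.00158) and lower by -0.36 (SE 0.08) in HOXA9+MDHD against HOXA9+MEIS1 (adjusted p = 0.025). The second of these calls was lost in 9 of 24 other settings, among them leaving out any 1 of 3 HOXA9+MDHD arrays (all but the first of week 4) or the second HOXA9+MEIS1 array of either week (-0.36 to -0.29, adjusted p from 0.0574 to 0.0872). Abcb6 and Abcb8, its mitochondrial relatives, were not called between conditions. In a list of 13 measured haem and iron-sulfur genes, 1 was called in HOXA9+MEIS1 against HOXA9+MIY, Alas1, for the first enzyme of haem synthesis (-0.64, adjusted p = 0.00159), and the same gene was called in HOXA9+MDHD against HOXA9+MEIS1 (0.41, adjusted p = 0.0484).

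Abcd3, a peroxisomal importer of fatty acid derivatives, averaged 8.92 ± 0.12 in HOXA9+MDHD, 9.18 ± 0.15 in HOXA9+MEIS1 and 8.86 ± 0.10 in HOXA9+MIY cultures (SD, n = 4 each). It was higher by 0.32 (SE 0.08) in HOXA9+MEIS1 against HOXA9+MIY (limma, adjusted p = 0.0182), a call lost without any of 6 single arrays, the HOXA9+MEIS1 and HOXA9+MIY arrays other than the first of week 4 in each condition (0.29 to 0.32, adjusted p from 0.0518 to 0.0683). Abcb9, Abcd2 and Abcd4 were not called between conditions. For Abcd2 the differences were -0.43 (SE 0.18) with HOXA9+MDHD (limma, adjusted p = 0.31) and -0.47 (SE 0.18) with HOXA9+MEIS1 (adjusted p = 0.13), both against HOXA9+MIY. Among 12 measured genes of peroxisomal fatty acid oxidation, Crot was called higher and Acox3 (-0.57, adjusted p = 0.000719) and Scp2 (-0.43, adjusted p = 0.0043) lower in HOXA9+MEIS1 against HOXA9+MIY. Tap1 and Tap2, for the peptide transporter, and Cftr, for a chloride channel, are ABC genes under other symbols; they and the 7 peptide loading genes listed with them were called in no condition comparison.

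Time in culture moved 13 of the 48 genes, 2 higher and 11 lower at week 4 than at week 3, while 39.8% of all tested genes were called, 11.7% higher and 28.1% lower. The family's share of 27.1% was below that of all genes, and its median change was 0.01, against -0.02 over all genes. The ribosome ATPases, the mitochondrial genes and both Abcb1 genes were among those that fell. Abcd2 and Abcg1 rose. A week effect here includes any difference in handling between the harvests, which cannot be told apart from time in culture.

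Abce1 recycles ribosomes after termination, and the Abcf genes encode soluble ATPases that act on the ribosome or on translation. Abce1 stood at 11.61, 11.56, 11.52, 11.62, 11.57 and 11.37 on the week 4 arrays (HOXA9+MDHD, HOXA9+MEIS1, then HOXA9+MIY, a pair each) and at 11.87, 11.93, 12.05, 12.02, 11.84 and 11.87 on the week 3 arrays. Abcf2 stood at 9.36, 9.29, 8.94, 9.00, 9.31 and 9.10 at week 4 and at 9.84, 9.93, 9.82, 9.85, 9.76 and 9.88 at week 3. Abcf1 stood at 9.78, 9.72, 9.71, 9.64, 9.61 and 9.56 at week 4 and at 9.96, 10.12, 10.06, 10.12, 9.96 and 9.95 at week 3. In all 3 genes every week 4 array was below every week 3 array, a separation seen for 22.1% of all genes. Abcf2 was lower by -0.68 (SE 0.06, limma adjusted p = 3.52e-06), Abce1 by -0.39 (SE 0.04, adjusted p = 9.34e-06) and Abcf1 by -0.36 (SE 0.04, adjusted p = 3.17e-05). Abcf3, the fourth gene of the group, changed by -0.16 and was not called (adjusted p = 0.064).

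All 3 mitochondrial genes analysed fell at week 4. Abcb8, an inner membrane transporter linked to iron export in mouse heart, stood at 8.58, 8.51, 8.53, 8.48, 8.51 and 8.40 at week 4 and at 8.82, 8.96, 9.05, 9.09, 8.79 and 8.91 at week 3. Abcb6, a porphyrin transporter, stood at 8.72, 8.61, 8.51, 8.67, 8.66 and 8.54 at week 4 and at 8.77, 9.11, 8.95, 8.93, 8.93 and 8.88 at week 3. Neither gene's week 4 arrays reached its week 3 arrays. The change was -0.44 (SE 0.05, limma adjusted p = 2.76e-05) for Abcb8, -0.31 (SE 0.06, adjusted p = 0.00124) for Abcb6 and -0.39 (SE 0.07, adjusted p = 0.000401) for Abcb10, whose groups overlapped. Of the 13 haem and iron-sulfur genes, 8 were called lower and 3 higher at week 4, against 28.1% and 11.7% of all genes. The largest changes were those of Alas1 (0.63, adjusted p = 7.18e-05), Glrx5 (-0.59, adjusted p = 1.46e-05) and the mitochondrial iron importer Slc25a37 (0.50, adjusted p = 2.17e-06).

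**Figure D4:**
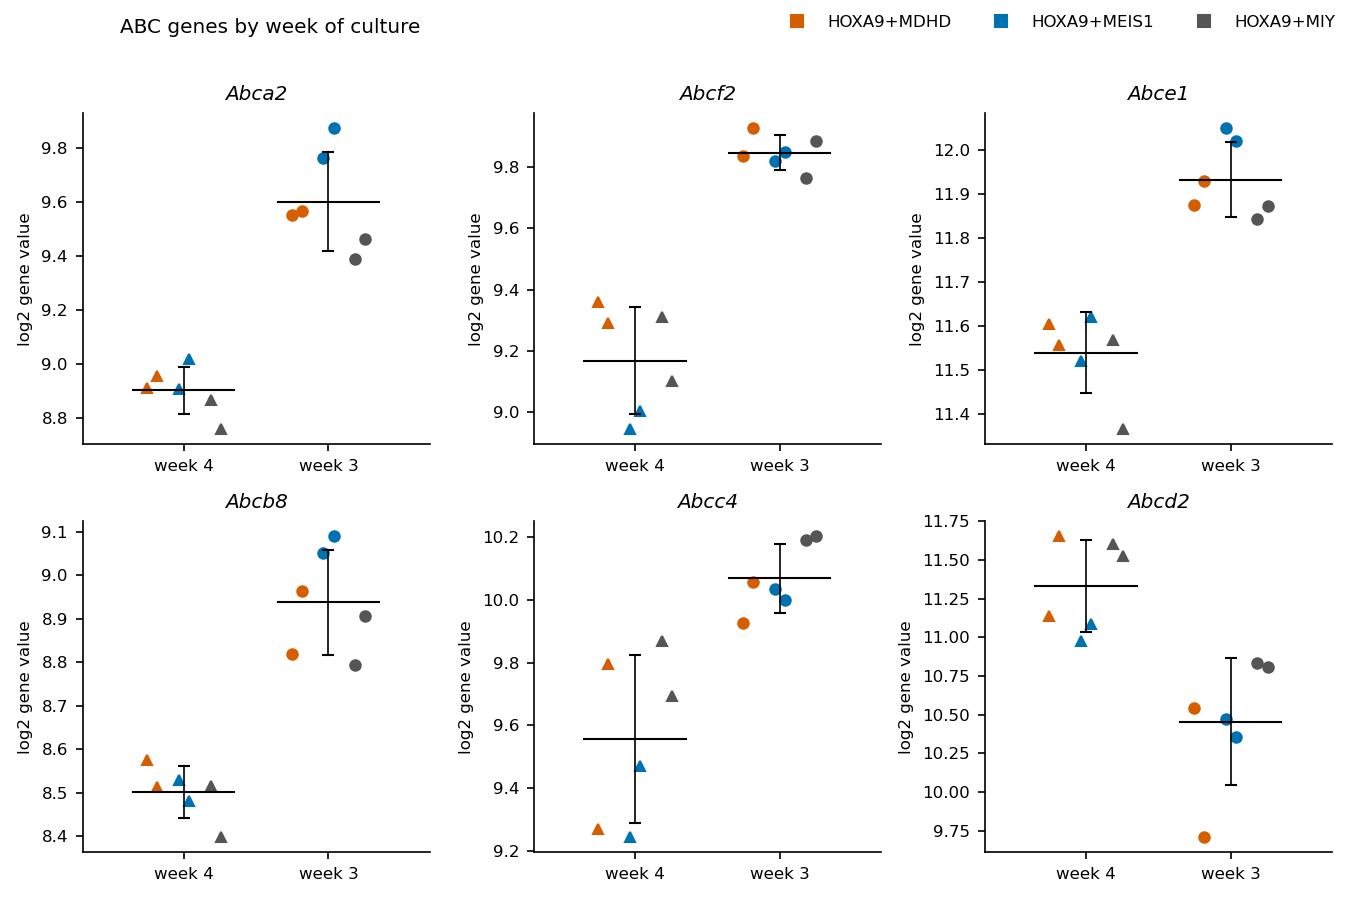
Each point is the log2 gene value of 1 array, by week of culture and coloured by condition; horizontal lines are means and bars are SDs over the 6 arrays of a week. In all 6 genes shown the weeks do not overlap, with Abcd2 higher and the other 5 lower at week 4.

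Abca2 had the lowest adjusted p of the family for any comparison. Abca2 stood at 8.91, 8.96, 8.91, 9.02, 8.87 and 8.76 at week 4 and at 9.55, 9.57, 9.76, 9.87, 9.39 and 9.46 at week 3, with a wide gap between the weeks. The change was -0.70 (SE 0.05, limma adjusted p = 1.41e-06), and all 57 probe sets were called lower. Abcc4 stood at 9.27, 9.80, 9.24, 9.47, 9.87 and 9.70 at week 4 and at 9.93, 10.06, 10.04, 10.00, 10.19 and 10.20 at week 3, again with no overlap. It was lower by -0.51 (SE 0.09, adjusted p = 0.000353). Abcd4, which in human cells serves lysosomal vitamin B12 export, stood at 8.02, 8.19, 8.03, 8.11, 8.20 and 8.21 at week 4 and at 8.30, 8.29, 8.50, 8.40, 8.45 and 8.47 at week 3. It was lower by -0.28 (SE 0.05, adjusted p = 0.000552).

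The drug pumps fell at week 4 on top of their condition changes, Abcb1b by -0.84 (SE 0.17, limma adjusted p = 0.00136) and Abcb1a by -0.74 (SE 0.20, adjusted p = 0.00982), from the array values given above. In both genes the weeks overlapped over all conditions, and within each condition both week 4 arrays were below both week 3 arrays. The call for Abcb1a was lost when the condition term was left out (adjusted p = 0.254).

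Abcd2, a peroxisomal importer of very long chain fatty acids, rose at week 4. It stood at 11.14, 11.65, 10.98, 11.09, 11.60 and 11.52 at week 4 and at 10.55, 9.71, 10.47, 10.36, 10.83 and 10.81 at week 3, with no overlap. The change was 0.88 (SE 0.15), 1.84-fold (limma, adjusted p = 0.000348), and all 16 probe sets were called higher. Abcg1 rose by 0.33 (SE 0.05, adjusted p = 8.32e-05), with overlap between the weeks over all conditions. The peroxisomal list had 1 gene called higher and 4 lower of 12 at week 4, against 11.7% and 28.1% of all genes. Its largest called changes were those of Pex19 (-0.50, adjusted p = 4.38e-06), Pex3 (-0.47, adjusted p = 5.6e-05) and Hsd17b4 (-0.47, adjusted p = 2.06e-05).

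Between the weeks, 39.8% of all tested genes were called, 11.7% higher and 28.1% lower. Of the other lists, the sterol list had 2 called higher and 4 lower of 16 at week 4. Lpcat3 (-0.59, limma adjusted p = 2.36e-06), Mylip (0.34, adjusted p = 0.00781) and Srebf1 (-0.31, adjusted p = 0.000258) led it. The glutathione list had 3 higher and 3 lower of 15, led by Txnrd1 (-0.61, adjusted p = 2.31e-05), Mgst1 (0.52, adjusted p = 0.0114) and Mgst2 (0.46, adjusted p = 0.00118). The peptide loading list had 2 higher and 3 lower of 10, with Tap1 higher by 0.58 (adjusted p = 3.55e-06) and the chaperone genes Calr (-0.39, adjusted p = 1.41e-05) and Pdia3 (-0.24, adjusted p = 0.000162) lower. Of the cell type markers, 4 of 10 neutrophil and 2 of 9 monocyte and macrophage markers were called higher at week 4 and 0 lower; their part in the week changes was not tested.

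Whether a condition change differed between the weeks was tested for each gene by an interaction term in limma. It was called for 0 of the 48 genes and for 0 of all genes in each of the 3 condition comparisons. At an unadjusted p under 0.05 there were 1 of the 48 (2.08%, against 4.81% of all genes) in HOXA9+MDHD minus HOXA9+MIY, 2 (4.17%, against 6.49%) in HOXA9+MEIS1 minus HOXA9+MIY and 3 (6.25%, against 7.49%) in HOXA9+MDHD minus HOXA9+MEIS1. Each value rests on 2 arrays per condition and week.

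In all, 19 of the 48 genes were called in at least 1 of the 4 comparisons and 29 in none. The share of 39.6% is close to the 45.5% of all tested genes called in at least 1 of them. The 29 include the bile salt pump gene Abcb11, the sulfonylurea receptor genes Abcc8 and Abcc9, and the sterol exporters of intestine and liver, Abcg5 and Abcg8. Their changes ran from -0.37 to 0.26 in HOXA9+MDHD minus HOXA9+MIY, from -0.29 to 0.16 in HOXA9+MEIS1 minus HOXA9+MIY, from -0.13 to 0.30 in HOXA9+MDHD minus HOXA9+MEIS1 and from -0.16 to 0.14 in week 4 minus week 3. The median share of probe sets above the filter was 38.9% in the 29 and 96.2% in the 19, and all 18 genes with under 50% kept were among the 29; the other 11 had at least 50% kept. Where few probe sets were above the filter, a change may have gone unseen.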

How the data were processed

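The deposited table holds log2 signals for 1256831 probe sets on 12 arrays; per the submitters' processing notes it was made with Affymetrix Expression Console and RMA, versions not given, and per the labels the RNA was fragmented and biotinylated with the WT Terminal Labeling Kit. These log2 values were used as deposited by the authors. Through the platform annotation 318760 probe sets named 1 symbol, 6684 several and 931387 none listed; those of several were not used, and 0 per-sample columns were left out. Probe sets with a mean under the 50th percentile (6.26) were dropped, leaving 233798, and the rest of each gene (median 8) were joined by median polish with at most 50 iterations. limma 3.58.1 in R 4.3.3 fitted condition and week to all 12 arrays (8 residual and 4.09 prior degrees of freedom). Tests were two-sided, with Benjamini-Hochberg adjustment over 20711 genes and a threshold of 0.05, and intervals are 95%. Precision is limited by how many arrays there were. The fit of HOXA9+MDHD minus HOXA9+MIY was tested on gene values simulated with independent normal noise. The filter, the median polish, the week comparison and the interaction were not tested in this way. Figures used matplotlib 3.10.9 and Python 3.11.15.

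Array values were given for Abcb1a and for up to 16 called genes by lowest adjusted p; for the others, means or ranges, and at most 3 called genes per pathway list. The genes and lists were chosen with earlier results of these data known. Deviations from the fit of condition and week correlated at -0.32 to -0.01 within a replicate number and week (12 pairs) and at -0.27 to 0.05 across numbers. Such deviations cancel out within each week, which lowers these correlations, so they cannot decide whether replicate numbers pair the arrays. Arrays of different weeks were not compared, so a pairing between weeks was not tested. Alternatives were the filter, the joining of probe sets, the scaling, the terms and arrays of the fit, robust and weighted fits, and each array left out.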

Additional observations from a re-analysis of the deposited data

Results flagged for a closer look

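Each called gene was checked for an array far from the other 3 of its condition (57 sets of 4 arrays), and 2 stood out. The cut-off is passed in about 1 in 20 sets of 4 independent values with 1 normal spread. Each set here joined both weeks, so that rate need not hold and no conclusion is drawn from the count. Abca1 was at 7.34 on the first HOXA9+MEIS1 array of week 3, while the other 3 HOXA9+MEIS1 arrays were at 7.17 to 7.19. Abcd3 was at 9.10 on the second HOXA9+MDHD array of week 3, while the other 3 HOXA9+MDHD arrays were at 8.85 to 8.87.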

How the results depend on the processing

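No change of a called gene turned its direction in any setting run. In HOXA9+MDHD minus HOXA9+MIY the 2 genes called became 1 with no filter on dim probe sets, 0 without the week term, 1 with these groups alone, 0 with the week 4 arrays alone and 1 with the week 3 arrays alone. Leaving out single arrays gave 1 to 6; the 6, without the second HOXA9+MDHD array of week 4, were Abca13, Abcb1a, Abcb1b, Abcc3, Abcc4 and Abcd2. The 11 genes of HOXA9+MEIS1 minus HOXA9+MIY became 5 without the week term and 5 with either week alone, and 8 to 13 without single arrays. The 5 genes of HOXA9+MDHD minus HOXA9+MEIS1 became 2 without the week term, 3 with these groups alone, 3 with week 4 alone and 0 with week 3 alone, and 3 to 5 without single arrays, 3 without the second HOXA9+MEIS1 array of week 4. The 13 genes of week 4 minus week 3 became 13 or 14 without single arrays. The fit with the replicate block called 3, 10, 5 and 14 genes in these comparisons, adding Abcg3 to the first and last and dropping Abca3 from the second. Over all genes, the 396 calls of HOXA9+MDHD minus HOXA9+MIY fell to 37 without the week term and 11 with week 4 alone, and reached 992 without the second HOXA9+MDHD array of week 4. Without the week term the 2246 and 902 calls of the other condition comparisons became 904 and 293; the cause was not tested. With the week arrays alone, fewer arrays entered each fit. Leaving out the condition term for the week comparison was chosen after seeing the data. Dim probe sets limit what could be seen: 18 of the 48 genes had under 50% of theirs above the filter.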

Other observations

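The SD over the 4 arrays of a condition includes any change between the weeks. It was largest in HOXA9+MDHD for 22 genes, in HOXA9+MEIS1 for 19 and in HOXA9+MIY for 7, with median SDs of 0.12, 0.10 and 0.10. These counts were not set against those of all genes, and a difference in spread was not tested. Set against the mean of the HOXA9+MIY arrays of the same week, Abcb1a was higher by 1.65 and 0.51 on the HOXA9+MDHD arrays of week 4 and by 1.79 and 2.45 on those of week 3. Abcd2 differed from its same-week HOXA9+MIY means by -0.42 and 0.09 at week 4 and by -0.28 and -1.11 at week 3. Among genes with at least 50% of their probe sets above the filter, 30 of the ABC genes remained, of which 11 (36.7%) were called in HOXA9+MEIS1 minus HOXA9+MIY, against 13.4% of 15912 genes so chosen. In HOXA9+MDHD minus HOXA9+MIY the shares were 6.67% and 2.38%, in HOXA9+MDHD minus HOXA9+MEIS1 16.7% and 5.37%, and in week 4 minus week 3 43.3% and 47.1%. This split was made after the values were seen and carries no test.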
